A study of Drosophila melanogaster with 15 samples.

Results

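Cytochrome P450 genes were followed in nuclear RNA from Drosophila photoreceptors between 10 and 40 days of age. The genes were chosen by symbol, Cyp followed by digits and a letter, with Cyp4p1 set aside, and by a level above 1 CPM (gene counts scaled to a common library total) in at least 3 of 14 libraries. Of 84 such symbols in the count table, 72 met this rule, among 10678 genes tested. Cyp4p1 was excluded by name, and the other 11 (Cyp12d1-d, Cyp304a1, Cyp308a1, Cyp313a2, Cyp313a3, Cyp313a5, Cyp316a1, Cyp318a1, Cyp4ad1, Cyp6a16 and Cyp6a17) stayed below the level, 4 of them with 0 counts. The level was reached in 3 libraries by Cyp312a1, Cyp313a4, Cyp6a15Psi and Cyp6a18, just inside the rule, and in 2 libraries by Cyp316a1 and Cyp318a1, just outside it. Of the 72 genes, 52 were above 1 CPM in all 14 libraries and 64 in at least 1 library of each age, so 8 entered through fewer than 5 ages. Cyp6a15Psi and Cyp6t2Psi are pseudogenes by name.

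The libraries came from male flies of 1 genotype that carried UAS-GFP-Msp300KASH and rh1-GAL4 in a w and ry[506] background, aged 10, 20, 25, 30 or 40 days at 25 °C in a 12:12 light:dark cycle, with no other treatment at any age. The driver marks the outer photoreceptors, and the study also found it active in cells of the antenna. Tagged nuclei were purified from head homogenates of pooled flies, with 3 libraries per age and 2 at day 30, where the study discarded replicate 3 for poor alignment. The study calls the libraries biological replicates, each from a pool of flies, so the tests measure the spread between pools. Fewer cells of a type and less RNA per cell cannot be told apart in such samples.

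P450 enzymes are heme-containing monooxygenases that insert an oxygen atom into small lipophilic molecules. Most insect P450s sit in the endoplasmic reticulum and receive electrons from the reductase Cpr, while members of the mitochondrial clan receive them from a ferredoxin. Clans are deep branches of the family tree. Insect members of the CYP3 clan are best known for breaking down insecticides and plant toxins, those of the CYP4 clan for acting on fatty acids, hydrocarbons and also foreign compounds, and those of the CYP2 and mitochondrial clans include enzymes that make or inactivate the moulting hormone ecdysone. By symbol, 36 of the 72 genes belonged to the CYP3 clan, 25 to the CYP4 clan, 8 to the mitochondrial clan and 3 to the CYP2 clan.

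The libraries held between 6213255 and 19819118 gene counts, so that 3 counts correspond to 0.151 to 0.483 CPM. The 8 outer photoreceptor markers (ninaE, ninaC, trp, norpA, Arr1, Arr2, inaD and chp) summed to between 73900 and 129000 CPM and none of them passed the threshold of the age test. Other cells of the head were present in smaller amounts: glial markers summed to 378 to 596 CPM, pigment and cone cell markers to 254 to 399 CPM, muscle markers to 215 to 761 CPM and fat body markers to 2270 to 3570 CPM. Read pairs assigned to no gene, as the counting tool reports them, numbered 100 to 112 per 100 gene counts in day 10 replicates 1 and 2 and both day 30 libraries, and 42.4 to 84.6 in the other 10 libraries.

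Most P450 genes were weakly represented in these nuclei, and Cyp4p2 had the highest mean over the 14 libraries. Of the 72 genes, 6 averaged under 1 CPM, 35 between 1 and 10 CPM, 30 between 10 and 100 CPM, and only Cyp4p2 more than that. Per kilobase of exon, Cyp4p2 averaged 136.6 CPM with a spread of 108 (SD over 14 libraries), against 48.7 ± 12.7 for Cyp313a1, which came next. Cyp6a2, a P450 known from insecticide-resistant strains, followed with 40.9 ± 8.23 CPM per kilobase. Cyp6d5 and Cyp28d1 followed with 39.9 ± 6.97 and 36.6 ± 6.33 CPM per kilobase, and these levels from Cyp313a1 downward lie within each other's spread. The order depended on age: at day 10 Cyp313a1 (60.3 CPM per kilobase), Cyp6a2 (45.9) and Cyp28d1 (43.6) stood above Cyp4p2 (42.5), and at day 40 Cyp4p2 stood at 305.5. The median was 7.22 CPM per kilobase in the CYP4 clan, 3.73 in the CYP3 clan, 3.01 in the mitochondrial clan and 2.56 in the CYP2 clan.

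**Figure D1:**
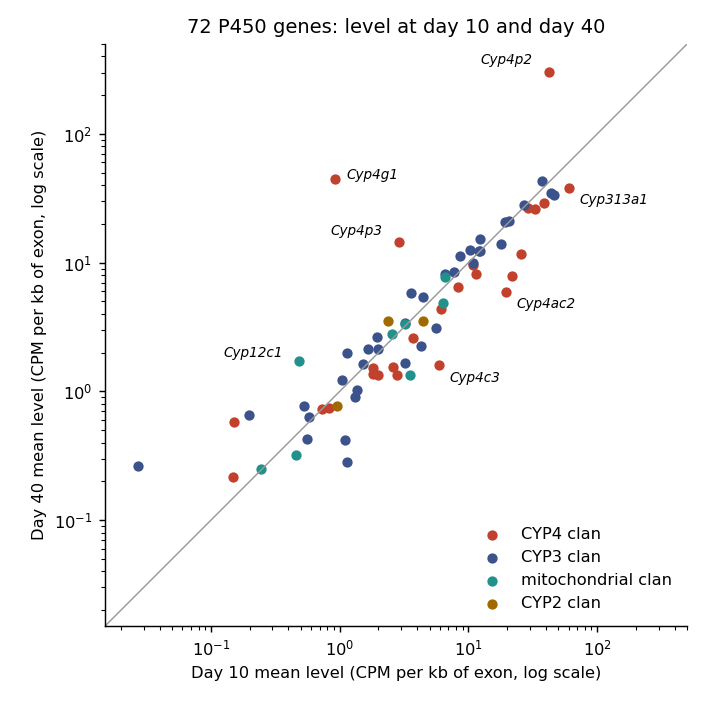
Mean level of each of the 72 P450 genes at day 10 (x axis) and day 40 (y axis), in CPM per kilobase of exon on log scales, coloured by clan, with the line of equality. Cyp4p2 moves from 42.5 to 305.5 and Cyp4p3 from 2.89 to 14.4, and Cyp4g1 stands off the line with 302.4 CPM in 1 of its 3 day 40 libraries.

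The 72 genes together took up a larger share of the counts at day 40 than at day 10. They held 0.117%, 0.111% and 0.143% of gene counts in the day 10 libraries and 0.154%, 0.159% and 0.199% in the day 40 libraries. The share was not largest at day 40 alone: the day 30 libraries held 0.1542% and 0.1623%, and day 20 replicate 3 held 0.1711%. The other libraries of days 20 and 25 held 0.1247% to 0.1405%. Their summed level averaged 1325 ± 82.9 CPM at day 10 (SD, n = 3) and 1708 ± 315.7 CPM at day 40 (n = 3). Cyp4p2 alone made up between 5.08% and 6.32% of the summed level at day 10 and between 26.9% and 36.7% at day 40. Without Cyp4p2 the sum averaged 1249 ± 86.4 CPM at day 10 and 1165 ± 130 CPM at day 40, and without both Cyp4p2 and Cyp4g1 it averaged 1247 ± 86.1 and 1063 ± 52.6 CPM. The higher total at day 40 thus lay in those members. The remaining 70 genes summed to less at day 40, where the highest library (1114 CPM) lay below the lowest day 10 library (1169 CPM). Cyp4p2 and Cyp4g1 both had higher means at day 40, and no falling gene was left out, so a lower remainder was favoured. The 70 also include Cyp4ac1, Cyp4ac2 and Cyp4ac3, whose fall cannot be told apart from the share of read pairs in no gene (below).

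The first question was which P450 genes changed over the whole time course. Cyp4p2 and Cyp4p3, which stand a few kilobases apart on chromosome 2R, rose with age, and Cyp4c3 on chromosome 3R fell. These were 3 of 72 genes, or 4.17%, past an adjusted p of 0.05 in a test of a linear and a squared age term (edgeR quasi-likelihood, Benjamini-Hochberg over all genes), beside 8.35% of all tested genes. The P450 genes were thus not called more often than genes in general, and their median fitted log2 change from day 10 to day 40 was -0.06 beside 0.01 for all genes.

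Cyp4p2 (FBgn0033395) lies on chromosome 2R from 9237512 to 9239831 on the plus strand of the BDGP6 assembly, inside an intron of hig, which is read from the opposite strand. At day 10 its libraries held 75.6, 79.0 and 71.9 CPM, at day 20 89.8, 145 and 159 CPM, and at day 25 214, 178 and 258 CPM. At day 30 they held 313.7 and 186.5 CPM, and at day 40 456.5, 411 and 761 CPM. Each age from day 20 on thus lay above every day 10 library, and every day 40 library lay above every younger one. From day 10 to day 40 the mean went from 75.5 ± 3.57 to 543 ± 190 CPM (SD, n = 3 each), a 7.2-fold rise, which is 2.85 ± 0.26 on the log2 scale (SE, edgeR, adjusted p = 4.78e-06). The age test gave an adjusted p of 1.17e-06.

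Cyp4p3 (FBgn0033397, chromosome 2R, 9242320 to 9244410, plus strand), also within an intron of hig, was far lower in level and rose as well. Its day 10 libraries held 4.05, 4.12 and 6.27 CPM, and its day 20 libraries 5.85, 5.11 and 7.36 CPM. At day 25 they held 17.3, 14.2 and 18.4 CPM, at day 30 16.1 and 13.9 CPM, and at day 40 17.7, 21.6 and 32.9 CPM. The day 10 and day 20 libraries overlapped, and every library from day 25 on lay above them. The log2 change from day 10 to day 40 was 2.31 ± 0.26 (SE), 4.95-fold, with an edgeR adjusted p of 4.65e-05, and the age test gave 0.000444. Cyp4p1, the gene between them, which the rule set aside, went from 38.0 ± 7.47 to 295.5 ± 135 CPM (log2 change 2.96), so all genes of this run of 3 were higher at day 40. The host gene hig had 250 ± 45.5 CPM at day 10 and 210.5 ± 23.8 CPM at day 40 (adjusted p = 0.259), and the counting was strand-specific.

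Cyp4c3 (FBgn0015032, chromosome 3R, 30894038 to 30900688, plus strand), for which the annotation shows no overlapping gene, fell with age. Its day 10 libraries held 12.9, 11.3 and 9.48 CPM, and its day 20 libraries 3.41, 6.85 and 3.50 CPM. At day 25 they held 4.75, 6.45 and 6.21 CPM, at day 30 4.94 and 3.75 CPM, and at day 40 2.34, 3.69 and 3.09 CPM. No library older than 10 days reached the lowest day 10 library, but the contrasts with day 10 did not pass at day 20 (edgeR adjusted p = 0.187), day 25 (0.149) or day 30 (0.0884). The log2 change from day 10 to day 40 was -1.88 ± 0.32 (SE), 3.67-fold lower at day 40, with an edgeR adjusted p of 0.00193, and the age test gave 0.00441. With the share of read pairs in no gene as a covariate the contrast missed the threshold (log2 change -1.41, adjusted p = 0.16).

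**Figure D2:**
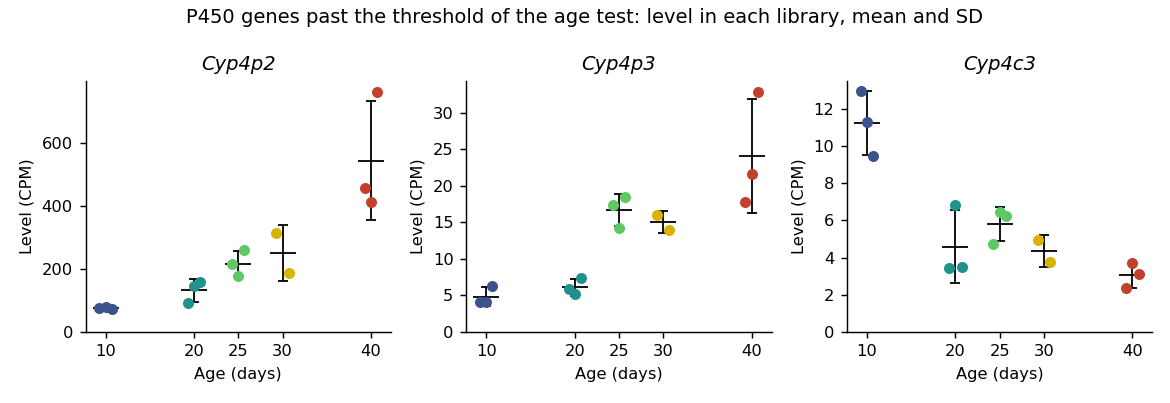
Level in CPM (y axis) by age in days (x axis) for Cyp4p2, Cyp4p3 and Cyp4c3. Points are libraries, and bars give the mean and SD of each age (n = 3, and 2 at day 30). Cyp4p2 runs from 71.9 to 79.0 CPM at day 10 and from 411 to 761 CPM at day 40, and Cyp4c3 from 9.48 to 12.9 down to 2.34 to 3.69 CPM.

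Some markers of other cells passed the threshold from day 10 to day 40, where 10.4% of all tested genes did. Of the markers tested, 0 of 4 passed for hemocytes, 0 of 4 for antennal support cells, 0 of 4 for inner photoreceptors and 0 of 3 for oenocytes. Among muscle markers, Act57B and Mlc2 rose (2 of 5 tested), and the summed level of the list was 215 to 484 CPM at day 10 and 578 to 761 CPM at day 40, with none of the 5 at 0. Among glial markers, nrv2 and alrm fell (2 of 7), with sums of 436 to 596 CPM at day 10 and 378 to 430 CPM at day 40, and the defining marker repo had 36.9 ± 11.9 and 33.7 ± 9.85 CPM. Crys fell among the 3 pigment and cone cell markers, whose sums were 338 to 399 and 273 to 393 CPM. Of 7 fat body markers tested, Yp1 (0.31 ± 0.29 CPM at day 10 and 22.03 ± 30.7 at day 40) and Yp2 rose and Lsp1beta fell from day 10 to day 40. The day 40 SD of Yp1 was above its mean, so its level differed widely between libraries. The sums over all 9 fat body markers overlapped, with 2280 to 3570 CPM at day 10 and 2470 to 3230 CPM at day 40. Of 3 chordotonal organ markers tested, nompA came nearest to the threshold from day 10 to day 40 (log2 change -1.08, edgeR adjusted p = 0.139). The 4 chordotonal markers present in the count table, not only the 3 tested, summed to 19.1 to 31.8 CPM at day 10. They summed to 11.3 to 15.4 CPM at day 20 and 9.55 to 19.2 CPM at day 40. The part of these cells in the P450 results was not tested.

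The steps between ages showed when the changes became visible. Between day 10 and day 20, 0 of 72 P450 genes and 0.00937% of all genes passed the threshold with edgeR. At an unadjusted p under 0.05 there were 6 P450 genes (8.33%, beside 8.1% of all genes), and DESeq2 called 1, beside 49 of all genes. By day 25 Cyp4p2 (log2 change 1.52, adjusted p = 0.00626) and Cyp4p3 (1.77, adjusted p = 0.00308) were higher than at day 10, 2 of 72 genes beside 0.974% of all genes. By day 30 they were the called genes again, at 1.73 (adjusted p = 0.00508) and 1.62 (adjusted p = 0.0125), beside 0.871% of all genes. Without day 10 replicate 1 there was 1 called P450 gene in each of these contrasts, beside 19 of all genes at day 25 and 23 at day 30. There was likewise 1 at day 30 without day 10 replicate 2, beside 32 of all genes.

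Over the full span from day 10 to day 40, 3 P450 genes rose and 6 fell among those that passed. The threshold was passed by 9 of 72 genes, or 12.5%, beside 10.4% of all tested genes, so the share was close to the background. Of the 9, Cyp4p2, Cyp4p3 and Cyp12c1 rose, and the other 6 fell (Cyp4c3, Cyp4ac1, Cyp4ac2, Cyp4ac3, Cyp317a1 and Cyp49a1), so 4.17% rose beside 5.76% of all genes and 8.33% fell beside 4.63%. In 13 P450 genes (18.1%, beside 12.9% of all genes) every day 40 library lay below every day 10 library, and in 8 (11.1%, beside 15.6%) every one lay above. The 13 include Cyp6t2Psi, above 1 CPM at every age but day 40. The 8 include Cyp6a18, above 1 CPM only at days 25, 30 and 40. The level rule, which chose all tested genes, favoured the separation of such genes. Without day 10 replicate 1 the count was 4 (2 higher, 2 lower), beside 587 of all genes, where the main fit called 1109. Without day 40 replicate 3 the count was 5 (2 higher, 3 lower), beside 559 of all genes. With the share of read pairs in no gene as a covariate it was 4, beside 197 of all genes. Of these 4, 3 were higher and 1 lower, so the split between directions turned. In each of these fits the calls over all genes fell as well.

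**Figure D3:**
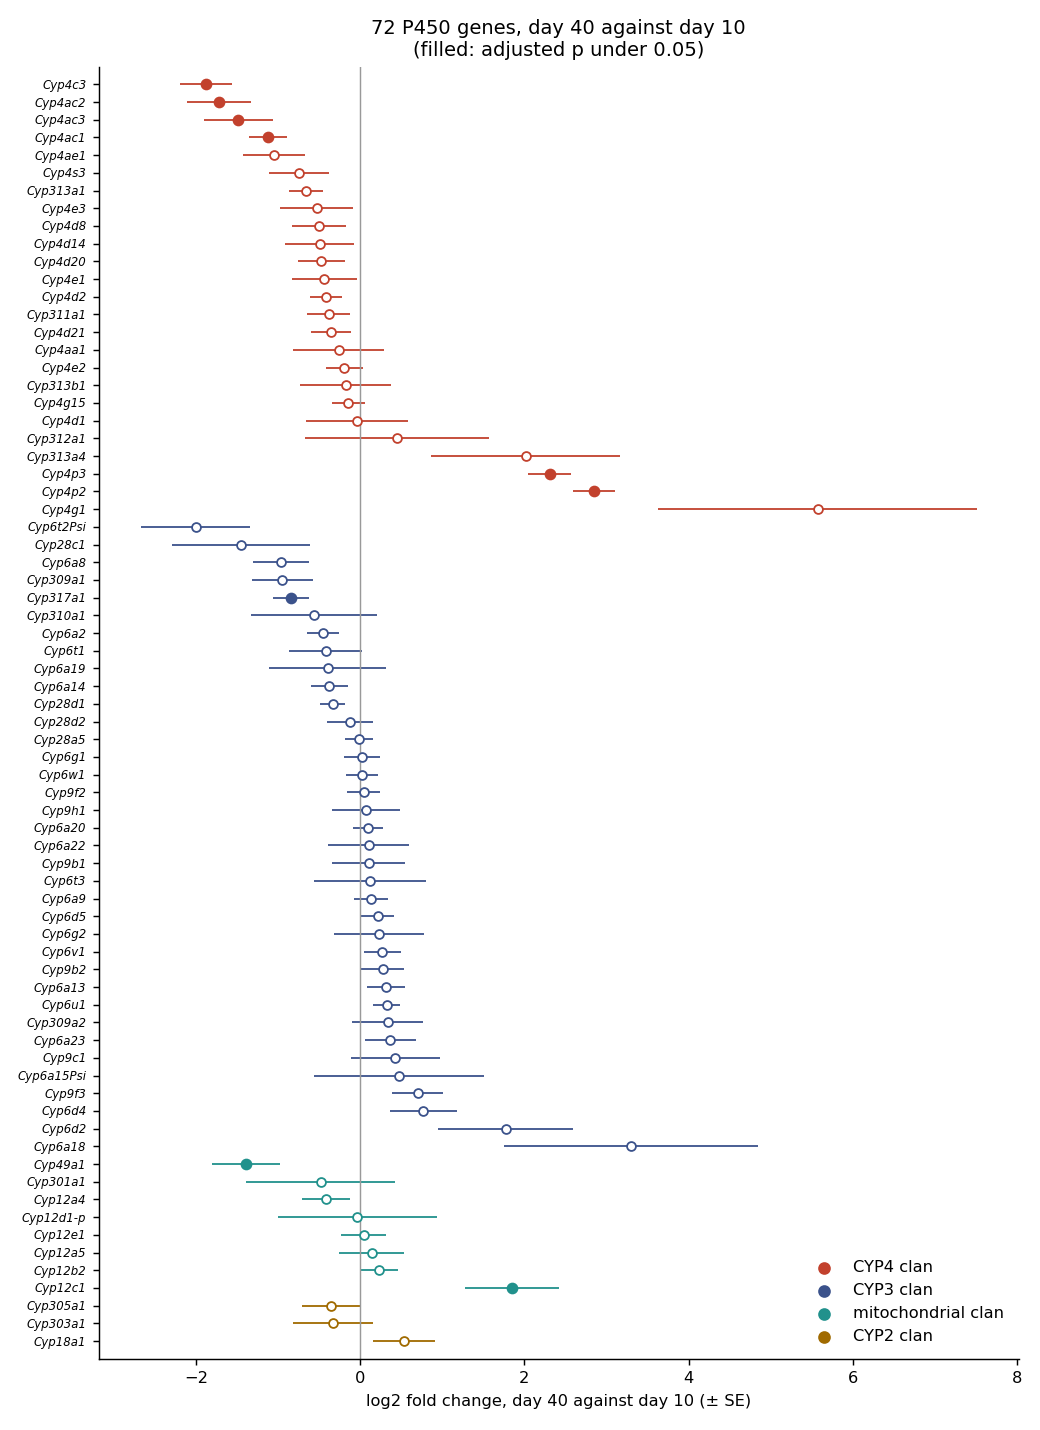
Log2 fold change from day 10 to day 40 (x axis, bars ± SE) for each of the 72 P450 genes, grouped by clan and ordered by size. Filled points passed an adjusted p of 0.05, namely 3 genes to the right of 0 and 6 to the left, and in the CYP4 clan 20 of 25 genes lie below 0.

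By clan, most of the called genes lay in the CYP4 clan. There, 2 of 25 genes rose and 4 fell, where 5.76% of all tested genes rose, 4.63% fell and 10.4% passed in either direction. Those that fell include the neighbours Cyp4ac1, Cyp4ac2 and Cyp4ac3, which lost their calls with the share of pairs in no gene as a covariate. The median log2 change of the 25 genes was -0.42, with 20 below 0 and 5 above, where 50.6% of all tested genes were above 0. In the CYP3 clan, the detoxification branch, 1 of 36 genes passed, Cyp317a1, which fell, and the median was 0.10. In the mitochondrial clan Cyp12c1 rose and Cyp49a1 fell among 8 genes with a median of 0.00, and in the CYP2 clan 0 of 3 passed (edgeR), with a median of -0.33. The median over all tested genes was 0.01. A difference between clans was not tested.

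A run of 3 neighbours fell together, Cyp4ac1, Cyp4ac2 and Cyp4ac3 (FBgn0031693, FBgn0031694 and FBgn0031695), which follow each other on chromosome 2L from 5264001 to 5270329 on the plus strand, inside an intron of tkv, a gene read from the opposite strand. Cyp4ac1 had 49.2, 50.1 and 28.7 CPM at day 10, 27.3, 30.4 and 34.1 at day 20, 23.7, 30.1 and 22.3 at day 25, 42.0 and 35.1 at day 30, and 25.7, 17.8 and 15.3 at day 40. Every day 40 library lay below every day 10 library, and day 30 stood higher than day 25. Cyp4ac2 had 43.4, 42.5 and 14.1 CPM at day 10, 10.7, 27.3 and 26.6 at day 20, 15.4, 17.1 and 22.8 at day 25, 39.5 and 27.7 at day 30, and 11.8, 11.7 and 6.97 at day 40. Its day 10 replicate 3 stood far below the other day 10 libraries. Cyp4ac3 had 47.0, 45.3 and 13.3 CPM at day 10, 14.3, 30.8 and 31.4 at day 20, 22.2, 17.7 and 26.5 at day 25, 51.2 and 37.6 at day 30, and 17.5, 14.4 and 6.18 at day 40, so its day 10 and day 40 libraries overlapped. From day 10 to day 40 the log2 changes were -1.12 ± 0.23 for Cyp4ac1 (edgeR adjusted p = 0.0055), -1.72 ± 0.39 for Cyp4ac2 (0.0104) and -1.48 ± 0.42 for Cyp4ac3 (0.0334).

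These levels moved with the share of read pairs in no gene. The 4 libraries with 100 or more such pairs per 100 gene counts had 27.7 to 43.4 CPM of Cyp4ac2, and the other 10 libraries 6.97 to 27.3 CPM, the lowest in day 40 replicate 3, which had the fewest such pairs, 42.4. Within day 10, replicates 1 and 2 had 103 and 100 such pairs, and replicate 3 had 60.7. With that share as a covariate, the log2 change from day 10 to day 40 was -0.33 for Cyp4ac1 (adjusted p = 0.692), 0.26 for Cyp4ac2 (0.799) and 0.70 for Cyp4ac3 (0.276), so each lost its call and Cyp4ac2 and Cyp4ac3 changed sign. The share was 42.4 to 56.4 at day 40 and lower than in any other library, so age and the share cannot be told apart for these genes. Cyp4ac2 also missed the threshold without day 10 replicate 1 (adjusted p = 0.0516), without day 10 replicate 2 (0.05) and without day 40 replicate 3 (0.0547), and Cyp4ac3 without these (0.131, 0.123 and 0.135) and without day 40 replicate 2 (0.0668).

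**Figure D4:**
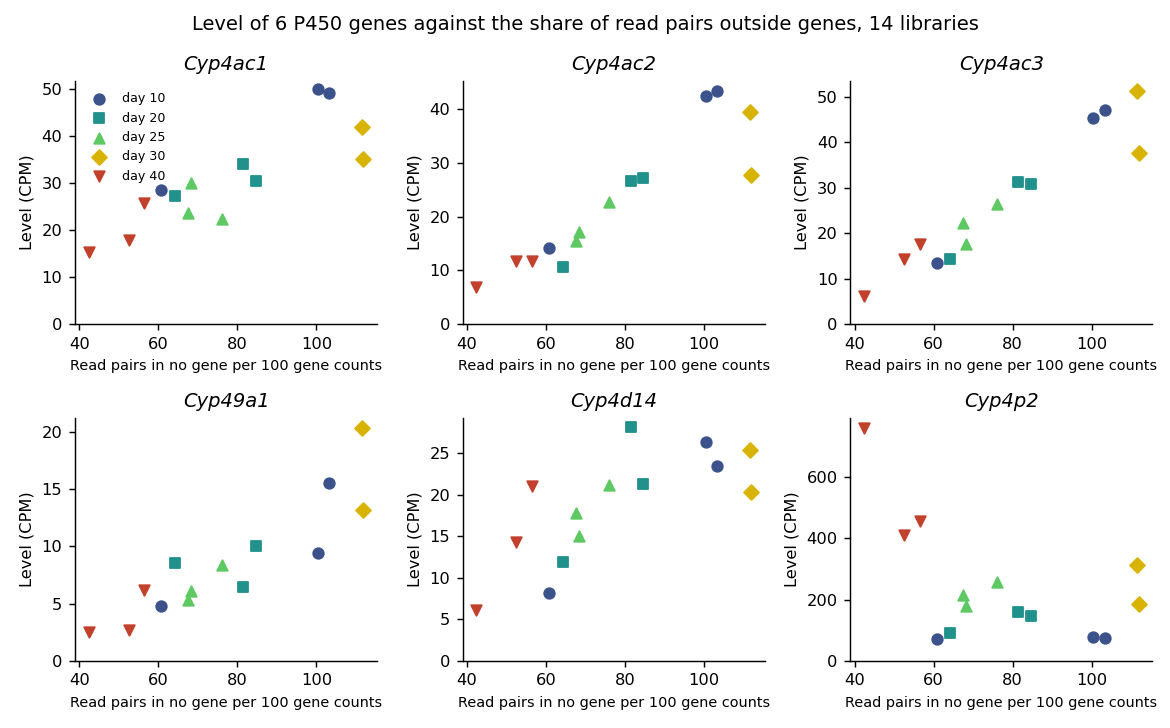
Level in CPM (y axis) of Cyp4ac1, Cyp4ac2, Cyp4ac3, Cyp49a1, Cyp4d14 and Cyp4p2 in 14 libraries against read pairs in no gene per 100 gene counts (x axis), with symbols for age. Cyp4ac2 runs from 6.97 CPM at 42.4 pairs to 43.4 CPM at 103 pairs, while Cyp4p2 is highest, at 761 CPM, in the library with the fewest such pairs.

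Cyp49a1 (FBgn0033524, chromosome 2R, 10449350 to 10458892, minus strand), of the mitochondrial clan, lies in an intron of Galphao on the opposite strand and followed the same libraries in part. It had 15.5, 9.40 and 4.81 CPM at day 10, 8.59, 10.0 and 6.43 at day 20, 5.29, 6.07 and 8.36 at day 25, 20.4 and 13.2 at day 30, and 6.23, 2.66 and 2.53 at day 40. Its highest libraries were those of day 30 and day 10 replicate 1, while day 10 replicate 2 stood below day 20 replicate 2. The day 10 and day 40 libraries overlapped. The log2 change was -1.39 ± 0.41 from day 10 (edgeR adjusted p = 0.0387) and -2.16 ± 0.45 from day 30 (adjusted p = 0.0254), where it was 1 of 72 called P450 genes, beside 1.11% of all genes. Cyp49a1 lost the call from day 30 with the share of pairs in no gene or library size as a covariate, with a replicate block, and without day 40 replicate 2 or 3. With the share of pairs in no gene as a covariate the change from day 10 was 0.00, at an adjusted p of 1.0. It missed the threshold from day 10 without day 10 replicate 1 (0.215), day 10 replicate 2 (0.0863), day 40 replicate 2 (0.131) or day 40 replicate 3 (0.156). With library size scaling it missed it as well (edgeR adjusted p = 0.0534). Galphao itself had 213 ± 27.6 CPM at day 10 and 206 ± 20.9 CPM at day 40 (adjusted p = 0.873).

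Cyp317a1 (FBgn0033982, chromosome 2R, 14898312 to 14903095, plus strand) was the called gene of the CYP3 clan. It had 23.7, 19.6 and 24.7 CPM at day 10, 14.7, 20.6 and 14.7 at day 20, 21.7, 19.6 and 18.7 at day 25, 20.7 and 25.5 at day 30, and 16.0, 13.7 and 8.65 at day 40. Day 40 lay below day 10 in each library, with a log2 change of -0.84 ± 0.22 (edgeR adjusted p = 0.022). Its call was lost without day 10 replicate 1 (0.07), without day 40 replicate 3 (0.104), with library size scaling (0.0611) and with the share of pairs in no gene as a covariate (-0.66, adjusted p = 0.38). Cyp12c1 (FBgn0036806, chromosome 3L, 18684259 to 18686319, minus strand), of the mitochondrial clan, was a gene of few counts. It had 1.46, 0.528 and 0.730 CPM at day 10, 1.63, 1.06 and 3.00 at day 20, 1.98, 1.44 and 2.03 at day 25, 1.24 and 2.54 at day 30, and 2.92, 2.49 and 4.33 at day 40. Day 40 lay above day 10 in each library, with a log2 change of 1.85 ± 0.57 (edgeR adjusted p = 0.0471), close to the threshold. DESeq2 gave an adjusted p of 0.0127. In edgeR its call was lost with a replicate block (adjusted p = 0.0695). The same held with the share of pairs in no gene (0.412) or library size (0.0798) as a covariate. Leaving out any library other than those of day 20 took its adjusted p above 0.05, to between 0.0504 and 0.176.

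Cyp313a1, second per length in the mean over all libraries and first at day 10, had 95.1, 76.1 and 122 CPM at day 10, 112, 84.4 and 65.5 at day 20, 65.5, 95.2 and 74.6 at day 25, 64.2 and 65.0 at day 30, and 52.1, 59.7 and 73.9 at day 40. Day 40 lay below day 10 in each library, and the log2 change of -0.66 ± 0.21 had an adjusted p of 0.0524 with edgeR and 0.0174 with DESeq2. Among members with a mean of at least 10 CPM, the others with the largest changes that did not pass were Cyp4d14 (-0.49 ± 0.42, adjusted p = 0.51), Cyp6a2 (-0.45 ± 0.20, 0.161) and Cyp4d2 (-0.42 ± 0.20, 0.194), beside Cyp4g1. Cyp6a2 lies in an intron of Epac on the same strand, so reads from unspliced Epac RNA and from Cyp6a2 cannot be told apart there. Epac fell from 208 ± 38.9 to 143 ± 16.5 CPM (log2 change -0.54, adjusted p = 0.0368). With the share of pairs in no gene as a covariate, Cyp4d14 changed by 1.54 (adjusted p = 0.0279) and Cyp313a1 by -1.33 (adjusted p = 0.0111).

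Cyp4g1 (FBgn0010019, chromosome X, 467057 to 469335, minus strand) set 2 libraries apart. This enzyme makes the last step of cuticular hydrocarbon synthesis in oenocytes, cells under the cuticle. Its level was 280 CPM in day 20 replicate 3 and 302.4 CPM in day 40 replicate 3, and between 0.815 and 4.30 CPM, with a median of 1.73, in the other 12 libraries. The fitted log2 change from day 10 to day 40 was 5.57 ± 1.94 (edgeR adjusted p = 0.0767), and without day 40 replicate 3 it was -0.31 (adjusted p = 0.953). It passed the threshold without day 20 replicate 3 (0.0205), day 20 replicate 1 (0.0453) or day 40 replicate 1 (0.0454), where the high day 40 library stayed in. With no low-count filter, and that library in the fit, it passed as well (log2 change 5.58, edgeR adjusted p = 1.03e-09). In the age test Cyp4g1 passed only without day 20 replicate 3 (edgeR adjusted p = 0.00216). The gene lies in an intron of CG32816 on the same strand, which had 4.14 to 7.82 CPM in the 14 libraries.

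Few other genes shared that library pattern. In a search chosen after the values were seen, 3 of 10678 genes had both of these libraries more than 5 times above the highest of the other 12: Cyp4g1, FASN2 and FBgn0038762. FASN2, a fatty acid synthase of oenocytes, had 30.6 and 29.1 CPM there and at most 3.17 CPM elsewhere. The other oenocyte markers, Desat1 and spidey, had 541 and 489 CPM and 73.1 and 89.8 CPM there, within or near their ranges of 323 to 620 and 62.1 to 84.8 CPM in the other libraries. The part of oenocyte RNA in the Cyp4g1 level was not tested. Without these libraries 5 P450 genes passed the threshold from day 10 to day 40, beside 562 of all genes, and 4 of the 5 were among the 9 above.

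**Figure D5:**
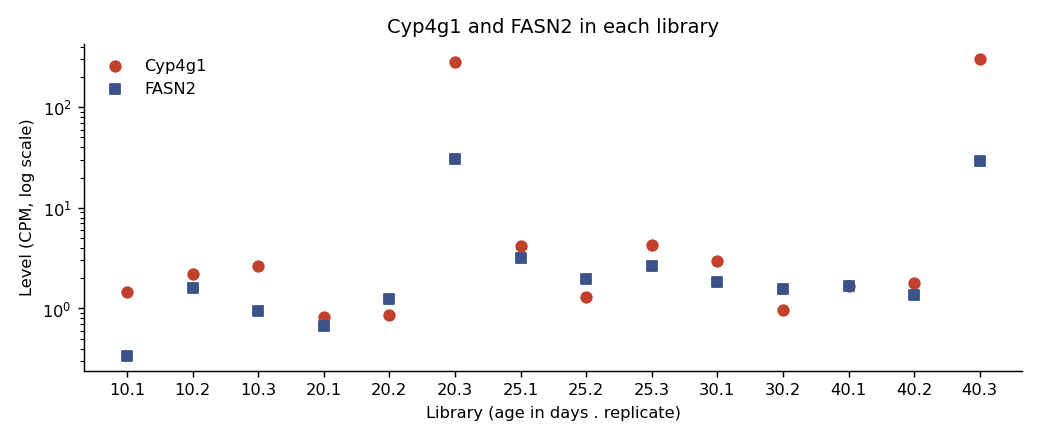
Level in CPM on a log scale (y axis) of Cyp4g1 and FASN2 in each of 14 libraries (x axis, age and replicate). Both genes are high in day 20 replicate 3 and day 40 replicate 3, where Cyp4g1 reaches 280 and 302.4 CPM, and low in the other 12.

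Members with well known roles mostly showed small differences, and none of the following passed the threshold in the age test or from day 10 to day 40 with edgeR on all 14 libraries. Cyp6g1, whose overexpression gives resistance to DDT, had 42.8 ± 13.4 CPM at day 10 and 43.7 ± 6.97 CPM at day 40 (log2 change 0.03 ± 0.22). Cyp4g15, the relative of Cyp4g1 found in the nervous system, had 76.4 ± 21.0 and 69.5 ± 12.8 CPM (-0.14 ± 0.20). Cyp6a20, known for its effect on male aggression, had 34.6 ± 9.97 and 37.1 ± 6.59 CPM (0.09 ± 0.19). The SE of these 3 genes was about as large as the change or larger, so changes of that size were not detectable here.

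Among inducible detoxification genes, Cyp6a8 had 5.75 ± 1.51 CPM at day 10 and 2.95 ± 0.211 CPM at day 40, with every day 40 library below day 10, and a log2 change of -0.96 ± 0.34 (adjusted p = 0.079 with edgeR and 0.0336 with DESeq2). Cyp6d5 had 61.0 ± 15.1 and 71.0 ± 1.28 CPM (0.22 ± 0.20). Cyp28d1, linked to nicotine resistance, had 70.4 ± 6.63 and 55.8 ± 4.98 CPM (-0.34 ± 0.15, adjusted p = 0.183), and its neighbour Cyp28d2 had 18.3 ± 6.21 and 16.7 ± 5.58 CPM (-0.12 ± 0.28). Cyp12d1-p ranged from 0 to 3.04 CPM. It has a near-identical copy, Cyp12d1-d, and since pairs with several alignments were not counted, its level is uncertain.

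Of the members with roles in hormone and cuticle biology, Cyp18a1, which inactivates ecdysone, had 7.27 ± 4.77 and 10.7 ± 1.14 CPM (0.54 ± 0.38). Without day 10 replicate 3, which held 12.8 CPM beside 4.28 and 4.75 in the others, its change was 1.25 (edgeR adjusted p = 0.0287) and it passed the age test (0.0485), and with the share of pairs in no gene as a covariate it was -0.57 (0.649). Cyp301a1, needed for the adult cuticle, had 0.885 ± 0.687 and 0.626 ± 0.647 CPM (-0.48 ± 0.91). Cyp303a1, needed for external sensory organs, had 2.66 ± 0.82 and 2.14 ± 1.23 CPM (-0.33 ± 0.48). Cyp4d21, also called sex-specific enzyme 1, had 60.2 ± 29.2 CPM at day 10, with 92.4 CPM in replicate 3, and 47.3 ± 5.53 CPM at day 40 (-0.35 ± 0.25). The day 10 and day 40 libraries of these 4 genes overlapped.

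P450 genes often stand in runs, and the runs did not all behave like the Cyp4p and Cyp4ac genes. With gaps of up to 10000 bases, 45 of the 84 Cyp genes with a position formed 16 runs, with 36 of the 72 members. The longest run, of 8 genes on chromosome 2R from 14871366 to 14903095, held 7 members with log2 changes from -0.96 to 0.37 between day 10 and day 40, and only Cyp317a1 passed. Cyp6g1, Cyp6g2 and Cyp6t3 ranged from 0.03 to 0.23, and Cyp4d14, Cyp4d2 and Cyp4ae1 on chromosome X from -1.05 to -0.42, with no gene past the threshold in either run.

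Genes that work with P450s were read from lists of their own. From day 10 to day 40, 10.4% of all tested genes passed the threshold. The calls below were not checked in the alternatives, which include the share of pairs in no gene as a covariate. Of 5 redox partner genes, Fdx1, a mitochondrial ferredoxin, rose from 1.80 ± 0.803 to 6.43 ± 0.592 CPM (log2 change 1.85 ± 0.42, edgeR adjusted p = 0.0102), while the reductase Cpr had 91.2 ± 17.1 and 112 ± 20.9 CPM (adjusted p = 0.384). Of 7 heme synthesis and breakdown genes, Alas, the first enzyme of heme synthesis, rose from 61.8 ± 4.01 to 100.4 ± 12.8 CPM (0.70 ± 0.16, adjusted p = 0.00901). FeCH, the last enzyme, which inserts the iron, rose from 8.02 ± 2.295 to 20.5 ± 2.96 CPM (1.36 ± 0.24, adjusted p = 0.00253). The other 5 heme genes and the other 4 partners did not pass.

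P450 genes with names of their own, which the symbol rule did not take, were few. Of 4 tested genes of ecdysone synthesis (dib, sad, shd and spok), dib fell from 7.56 ± 3.27 to 2.18 ± 0.573 CPM (log2 change -1.80 ± 0.36, adjusted p = 0.00478). Its product is a mitochondrial hydroxylase of that pathway. Among 6 regulators of the response to foreign compounds, cnc, the fly counterpart of the mammalian Nrf2 factor, passed close to the threshold. It rose from 279 ± 20.9 to 360.5 ± 18.2 CPM (0.37 ± 0.12, edgeR adjusted p = 0.0483). Both lists stand beside 10.4% of all tested genes, and their calls were not checked in the alternatives.

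The conjugating enzymes that act on P450 products were called about as often as genes in general (10.4% of all tested genes from day 10 to day 40). Of 25 tested glutathione S-transferase genes, 3 passed from day 10 to day 40: GstO1 (log2 change 1.74 ± 0.44, adjusted p = 0.0194) and GstD9 (1.38 ± 0.37, 0.0239) rose, and GstZ1 (-1.16 ± 0.35, 0.043) fell. Of 19 tested UDP-glycosyltransferase genes, Ugt36E1 rose (0.47 ± 0.14, 0.0465) and Ugt36D1 fell (-0.81 ± 0.23, 0.0356). In the age test GstO1 (adjusted p = 0.0499) and Ugt35A1 (0.0377) were higher with age, and the medians of both lists from day 10 to day 40 were 0.14 and -0.17.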

How the data were processed

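Nuclear RNA-seq of 15 libraries was taken from the deposited table of raw counts. The authors trimmed reads with Trimmomatic, aligned them with TopHat to BDGP6 and counted read pairs per gene on the annotated strand with HTSeq, which gave whole-number counts with multi-mapped pairs left out. The deposited filtered counts were used as a gene filter in 1 alternative. The authors' CPM table was not used. Lines of the count table that name no gene were left out of totals and tests, and the share of pairs in no gene is given per library in the text. Day 30 replicate 3 was left out, as in the study. Ages came from the sample labels. Column names number replicates from 1 and the sample descriptions from 0, so replicate numbers here are those of the columns.

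The tests used edgeR 4.0.16 (R 4.3.3) on the raw counts, with TMM scaling, genes above 1 CPM in at least 3 of 14 libraries, quasi-likelihood tests and Benjamini-Hochberg adjustment over 10678 genes at 0.05. The age test fitted linear and squared age terms together. Contrasts came from a fit with 1 mean per age over all 14 libraries. The tests were tested on simulated data. CPM in the text uses TMM-scaled library sizes, and levels per kilobase use summed exon length from the Ensembl 115 annotation, which gave a position for 17252 of 17558 genes and whose gene models can differ from those of the authors. Floors of 3 counts cover counting error only.

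Genes named were those past the threshold in the age test or from day 10 to day 40, the 5 highest per length, the 5 largest changes not past the threshold at a mean of at least 10 CPM, and members with well known roles. The members, lists and tests were chosen with earlier results of these data known. Alternatives were other scaling, DESeq2 1.42.0, no low-count filter, the filtered gene set, a replicate block, covariates, a linear age term and leaving out each library. Single genes were followed through these for members only, not for the other lists. Promoter motifs were not analysed here.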

Additional observations from a re-analysis of the deposited data

Results flagged for a closer look

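Day 30 replicate 3, which the study discarded and no comparison here uses, held 1092 counts of the 72 P450 genes among 518520 gene counts, or 0.211% (95% Wilson interval 0.198% to 0.223%, for counting error only). Signal in a library outside the comparisons is why it is listed. Cyp4g1 had 353 of these counts, 681 CPM with an interval of 613 to 756 CPM, above any other library, and FASN2 had 45 counts, 86.8 CPM. Cyp4p2 had 123 counts, 237 CPM (199 to 283), between the 2 other day 30 libraries. Cyp4c3 had 0 counts, which allows up to 5.79 CPM by the limit of 3 counts and 7.41 CPM by the Wilson interval.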

How the results depend on the processing

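Cyp4p2 and Cyp4p3 passed the age test in each of 24 alternatives and the contrast of day 40 with day 10 in each of 23, and Cyp4c3 passed in 24 and 22. In the age test 3 P450 genes and 892 of all genes passed. With DESeq2 these numbers were 6 and 1486, and without the low-count filter 6 and 1272. With a linear age term only they were 6 and 1106, and with library size as a covariate 5 and 1076. Leaving out 1 library gave 3 to 6 in the age test (6 without day 10 replicate 3, and 5 without day 10 replicate 2, day 20 replicate 1, day 20 replicate 3 or day 30 replicate 1), 0 to 0 at day 20, 1 to 3 at day 25, 1 to 2 at day 30 and 4 to 11 at day 40 against day 10. Without day 10 replicate 3 the age test called 1051 of all genes. Without day 10 replicate 2, day 20 replicate 1 or day 20 replicate 3 it called 472, 1134 and 837 of them. For day 20 against day 10, DESeq2 gave 1 and no filter 3, beside 49 and 128 of all genes. For day 25 against day 10 these gave 4 and 5, beside 397 and 460 of all genes. For day 40 against day 10 the share of pairs in no gene as a covariate gave 4 genes, of which 2 are among the 9 of the main result, and reversed Cyp4ac2 (0.26), Cyp4ac3 (0.696) and Cyp4d14 (1.536). Without both libraries with high Cyp4g1, an alternative chosen after seeing the data, it gave 5. For day 40 against day 30, where 1 gene passed, library size scaling gave 5, DESeq2 6 and no filter 8, and both covariates, the replicate block and leaving out the libraries with high Cyp4g1 gave 0. Leaving out 1 library gave 0 to 4 there (0 without day 40 replicate 2 or 3, 2 without day 40 replicate 1, 3 without day 20 replicate 1 and 4 without day 10 replicate 3). The cause of these differences was not tested.

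Replicate numbers did not pair the libraries: deviations of same-numbered libraries had correlations from -0.164 to 0.13, and 1 of 26 pairs was over 0.1. With the replicate block 7 genes passed from day 10 to day 40, all among the 9. Genes near 1 CPM, such as Cyp12c1, rest on few counts at this depth, where 3 counts are 0.151 to 0.483 CPM.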
